A study of Rattus norvegicus with 4 samples.

Results

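The genes of the cytosolic ribosomal proteins were followed in neonatal rat cardiomyocytes that overexpressed atrogin-1. Members were all genes of the array annotation whose symbol starts with Rpl or Rps and a number, together with the acidic stalk protein Rplp0, while the Rps6k kinases were left out. This gave 49 genes of 14217 that had a probe set of their own, 34 named for the large ribosomal subunit and 15 for the small one. A further 36 probe sets listed 2 to 6 symbols each, mostly a ribosomal protein gene with its like-named copies and pseudogenes, and were kept apart as shared probe sets. They raised the number of ribosomal protein probe sets to 90 of 31042.

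Ventricular cardiomyocytes from newborn Sprague-Dawley rats, aged 1 or 2 days, were infected for 24 hours in serum-free medium. Ad-atrogin-1, an adenovirus that delivers atrogin-1 and, by its label, GFP, was used on 2 arrays, and Ad-GFP, which delivers GFP alone, on 2 control arrays. All 4 cultures thus carried an adenovirus, and no uninfected culture was analysed here. Atrogin-1, encoded by Fbxo32, is the muscle F-box protein of an SCF ubiquitin ligase that marks proteins for degradation in wasting muscle. Signals were measured on Affymetrix Rat Genome arrays as log2 values, on which 1 unit is a 2-fold difference. A signal also depends on how well a probe set hybridises, so signals do not rank different mRNAs by abundance. Within a group the 2 arrays are biological replicates by their labels, and so small a number limits the precision of every value.

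A cytosolic ribosome is built from a small subunit, which decodes the mRNA, and a large subunit, which joins amino acids and carries the tunnel through which the new protein leaves. Each ribosomal protein is needed in step with the others, and their mRNAs are among the most abundant of a cell. Many of them begin with a 5′ terminal oligopyrimidine tract, a C followed by a run of pyrimidines at the very start of the transcript, through which mTOR and the RNA-binding protein Larp1 control their translation. In heart muscle, growth of the myocyte goes along with the making of new ribosomes, and atrophy with their loss.

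The start sites of 7 of the genes named below are shown because they carry this family feature. Each line gives the last 10 bases before the annotated start and the first 20 bases of the transcript, with the pyrimidine tract in capitals, from RefSeq on the GRCr8 rat assembly.
Rpl19, chr10:83519054-83519083, plus strand: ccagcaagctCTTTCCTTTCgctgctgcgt
Rpl22, chr5:168117951-168117980, plus strand: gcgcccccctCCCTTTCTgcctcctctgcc
Rpl28, chr1:78083513-78083542, minus strand: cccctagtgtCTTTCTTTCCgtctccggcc
Rpl35, chr3:43165902-43165931, minus strand: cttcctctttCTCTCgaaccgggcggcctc
Rpl39, chrX:121195877-121195906, minus strand: taatcgcgttCTTCCggcctgtcctttctc
Rplp0, chr12:46718371-46718400, minus strand: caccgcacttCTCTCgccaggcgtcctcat
Rps3a, chr2:173827023-173827052, minus strand: gtacttccgcCCTTTTggctctcagagcgg

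Of the 49 genes, 42 matched a promoter window in RefSeq, running from 250 bases before to 50 bases after the start. Each member was counted by the first window listed for its gene, while the shares of all windows count every window listed. A C followed by at least 4 pyrimidines stood exactly at the annotated start of 12 of the 42 (28.6%), against 2.63% of all 33469 windows. The letters TTCCGG, the core of the sites that ETS-family factors bind, were found on either strand in 16 of the 42 windows (38.1%), against 15.0% of all windows, and among them those of Rpl39 and Rpl35. They can overlap the tract, as in Rpl39. CACGTG, the E-box that Myc proteins bind, occurred in 3 member windows (7.14%, against 6.42% of all), and TATAAA, the TATA box, in 6 (14.3%, against 14.2%), each searched on either strand. Such matches describe letters in a window and do not locate a working site.

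As a check of the infection, Fbxo32 had log2 signals of 13.55 and 13.47 on the Ad-atrogin-1 arrays, against 5.24 and 5.04 on the Ad-GFP arrays (log2 fold change 8.37, SE 0.13, limma adjusted p = 3.51e-05). The Ad-GFP signals were below the array medians of 5.51 to 5.52 and the Ad-atrogin-1 signals close to the array maxima, so the fold is not given as an exact size. Cardiomyocyte markers were bright, with a median log2 signal of 11.71 over 13 of 14 listed genes and none below 9.14. Their summed linear signal was 63751 and 51296 on the Ad-atrogin-1 arrays, against 53617 and 56552 on the Ad-GFP arrays. Their median log2 fold change was 0.33, with 8 above 0 and 5 below. The 11 fibroblast markers had a median signal of 10.40 and summed to 17603 and 17499 with Ad-atrogin-1, against 15527 and 18938 with Ad-GFP, while the endothelial, macrophage and epithelial lists had median signals of 5.91, 4.97 and 4.69. The 7 smooth muscle and pericyte markers had a median signal of 7.46 and a median log2 fold change of 0.16, with 4 above 0 and 3 below. They ran from -0.50 for Cspg4 (limma adjusted p = 0.244) to 0.98 for Rgs5 (limma adjusted p = 0.102). Between the groups the sums overlapped for cardiomyocyte and fibroblast markers, but not for the 7 epithelial and mesothelial markers, which summed to 405 and 455 with Ad-atrogin-1, against 293 and 251 with Ad-GFP. The median log2 fold change of that list was -0.07, with 2 above 0 and 5 below, so its higher sum rested on Krt19. Krt19 had log2 signals of 7.89 and 8.09 with Ad-atrogin-1, against 3.20 and 5.48 with Ad-GFP. Its log2 fold change was 3.65 (limma adjusted p = 0.107), and that of Krt18 was -0.83. No marker of the 6 lists was called, and none was at 0, since the log2 floor lies near 1.7. Rgs5, Cspg4, Krt19 and Krt18 are named here after their values were seen. The part of cell make-up in the results below was not tested, and in a bulk culture fewer cells of a type and less RNA per cell cannot be told apart.

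None of the 49 ribosomal protein genes was called higher or lower with atrogin-1. Most of them sat slightly above their Ad-GFP level, with a median log2 fold change of 0.09, or 1.07-fold. This median was 0.013 after further quantile normalization of the arrays, and -0.032 over the 16 members left when probe sets above the 99th percentile of signal were taken out. Of those members, Rpl3, Rpl7, Rpl14 and Rps24 were then represented by a second, dimmer probe set. Of the 49, 41 had a log2 fold change above 0, against 49.2% of all genes tested, and the range ran from -0.44 for Rpl28 to 0.41 for Rpl26l1. The middle of the family lay between 0.02 and 0.15 (lower and upper quartiles), while the median over all 14217 genes was -0.0028.

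A gene was called when its limma p, adjusted by Benjamini-Hochberg over all 14217 genes, was under 0.05 and the difference at least 2-fold. By that rule 73 genes, 0.513% of all, were called, 65 higher and 8 lower with atrogin-1. The smallest adjusted p among the ribosomal protein genes was 0.240. Without adjustment and with no fold threshold, 3 of 49 (6.12%) had a limma p under 0.05, against 13.4% of all genes, 1 of them higher (6.83% of all genes) and 2 lower (6.52%). A plain t-test, standing in for the unnamed test of the methods, called none of the 14217 genes after adjustment and so bears on no member, and at an unadjusted p under 0.05 with a 2-fold difference it called 117 genes, 0 of them among the 49.

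Each fold change had a 95% interval, which describes the signal of the probe set that stands for the gene. It excluded a 2-fold difference in either direction for all 49 genes, and a 1.5-fold difference for 42. For the 11 members with a mean signal under 9 it says less of the mRNA, since a dim probe set can miss a change. For the 38 genes with a mean log2 signal of 9 or more, all intervals excluded 1.5-fold, with bounds from -0.51 to 0.54. The standard error was between 0.11 and 0.28, and under 0.15 for 46 genes. Differences of the size of the family's median were therefore smaller than the error of any single gene.

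**Figure D1:**
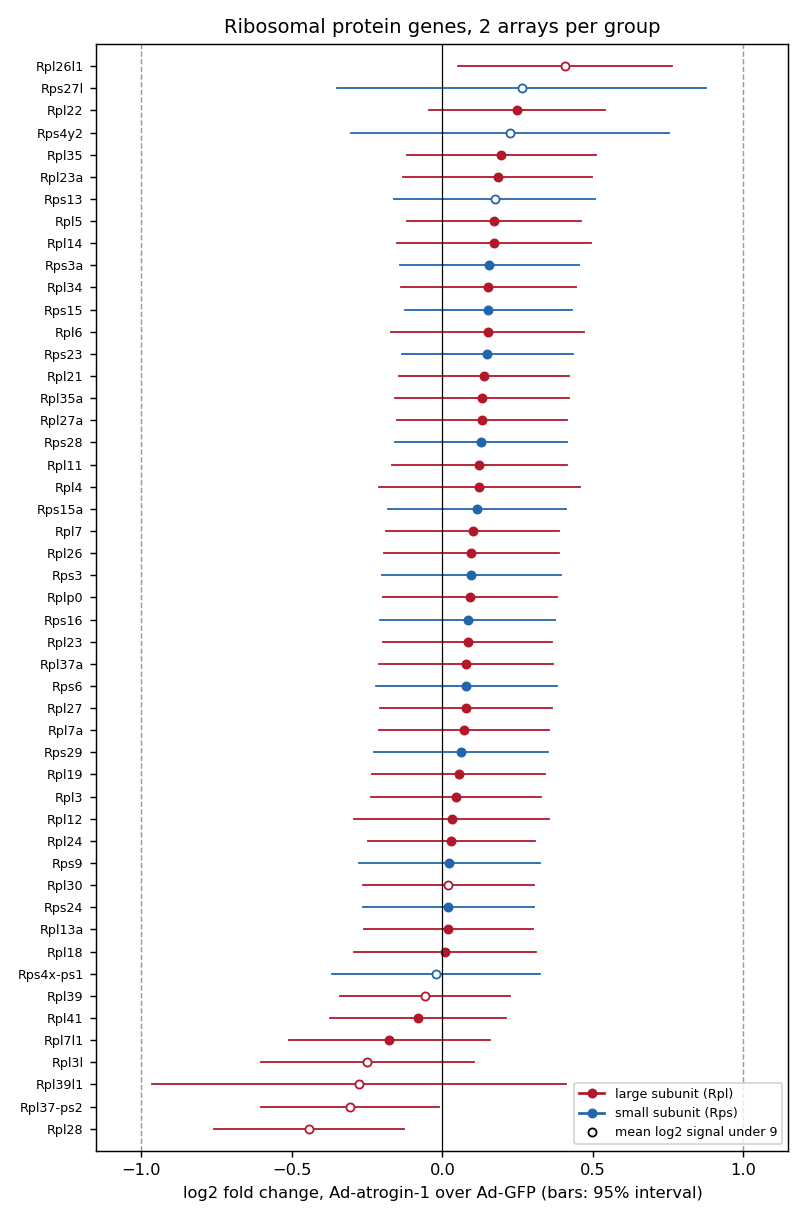
The log2 fold change of each of the 49 ribosomal protein genes (horizontal axis, Ad-atrogin-1 over Ad-GFP) with its 95% interval from limma as a bar, 2 arrays per group. Large subunit genes are red, small subunit genes blue, open circles mark a mean log2 signal under 9, and dashed lines mark a 2-fold difference; 41 points lie right of 0 and no bar reaches a dashed line.

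At the bright end of the large subunit stood Rpl26, which lies beside the exit tunnel. Rpl26 had log2 signals of 13.05 and 13.16 on the Ad-atrogin-1 arrays, against 12.98 and 13.04 on the Ad-GFP arrays (log2 fold change 0.10, SE 0.12, adjusted p = 0.785). Both Ad-atrogin-1 arrays were above both Ad-GFP arrays, by less than the gap between replicates. Rpl7a, a core large subunit protein, had 12.96 and 13.04 with Ad-atrogin-1, against 12.93 and 12.93 with Ad-GFP, a log2 fold change of 0.07 with no overlap of the groups. Rpl19 had 12.87 and 12.92 with Ad-atrogin-1, against 12.88 and 12.80 with Ad-GFP, and its groups overlapped (log2 fold change 0.05). Rpl3, whose protein reaches close to the peptidyl transferase centre, had 12.78 and 12.79 with Ad-atrogin-1, against 12.77 and 12.71 with Ad-GFP, a log2 fold change of 0.04.

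Rpl5 and Rpl11 enter the large subunit together with the 5S RNA and, when ribosome assembly is disturbed, bind Mdm2 and so stabilise p53. Rpl5 had log2 signals of 12.96 and 13.07 with Ad-atrogin-1, against 12.85 and 12.84 with Ad-GFP (log2 fold change 0.17, SE 0.12, adjusted p = 0.597). Rpl11 had 12.26 and 12.37 with Ad-atrogin-1, against 12.21 and 12.17 with Ad-GFP (log2 fold change 0.12, SE 0.12, adjusted p = 0.719). In each of the 2 genes the higher arrays were those of Ad-atrogin-1, with replicate 2 the highest of the 4, and neither passed the test. Rplp0, the base of the stalk that recruits elongation factors and a common reference gene in quantitative PCR, had 12.73 and 12.84 with Ad-atrogin-1, against 12.67 and 12.71 with Ad-GFP, a log2 fold change of 0.09 (95% interval -0.20 to 0.38).

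The largest log2 fold change among members with a mean signal of 9 or more belonged to Rpl22, an RNA-binding protein of the large subunit. Rpl22 had log2 signals of 11.75 and 11.79 with Ad-atrogin-1, against 11.58 and 11.46 with Ad-GFP (log2 fold change 0.25, SE 0.12, adjusted p = 0.452). Here the gap between the groups was wider than the gap between replicates in either group. Rpl35 and Rpl23a, neighbours at the tunnel exit where the signal recognition particle docks, had log2 fold changes of 0.20 and 0.18. Rpl35 had 12.28 and 12.46 with Ad-atrogin-1, against 12.21 and 12.14 with Ad-GFP, and Rpl23a 12.46 and 12.51 with Ad-atrogin-1, against 12.40 and 12.21 with Ad-GFP. Both sat higher on each Ad-atrogin-1 array, and over the 7 measured genes of the exit tunnel list the median log2 fold change was 0.12, with 6 of 7 above 0 and 0 called.

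Among small subunit genes, 14 of 15 had a log2 fold change above 0 (median 0.12), against 27 of 34 large subunit genes (median 0.08). Rps6, the substrate of S6 kinase and the usual readout of mTOR activity, had log2 signals of 12.70 and 12.82 with Ad-atrogin-1, against 12.73 and 12.63 with Ad-GFP (log2 fold change 0.08, SE 0.12, adjusted p = 0.839). Its groups overlapped, as Ad-GFP replicate 1 lay above Ad-atrogin-1 replicate 1. Rps3a had 12.90 and 13.04 with Ad-atrogin-1, against 12.82 and 12.80 with Ad-GFP, without overlap (log2 fold change 0.16, adjusted p = 0.643). Rps29 had 12.95 and 12.89 with Ad-atrogin-1, against 12.81 and 12.91 with Ad-GFP, with overlap (log2 fold change 0.06). These arrays measure mRNA only, so phosphorylation of the Rps6 protein and the number of ribosomes were not measured.

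Some members are mutated in Diamond-Blackfan anaemia, an inherited failure of red cell formation in which the dose of a ribosomal protein is reduced. The list had 10 measured genes of 18, all with a log2 fold change above 0 (0.01 to 0.20, median 0.11), 7 of them without overlap on the higher side (20.7% of all genes) and 0 called. Their summed linear signal was 59899 and 62906 on the Ad-atrogin-1 arrays, against 57174 and 57549 on the Ad-GFP arrays. On this sum as well, Ad-atrogin-1 replicate 2 was the highest of the 4 arrays.

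In 27 of the 49 genes (55.1%) both Ad-atrogin-1 arrays lay above both Ad-GFP arrays, against 20.7% of all genes. In 5 genes (10.2%) both lay below, against 22.3%. After further quantile normalization 11 of the 49 lay without overlap on the higher side, against 20.6% of all genes, so the share was then close to the background. Nor was the median difference the same for each array. The median signal of the members was 12.15 and 12.24 on the Ad-atrogin-1 arrays, against 12.16 and 12.14 on the Ad-GFP arrays. By this median of levels replicate 1 of Ad-atrogin-1 did not stand higher, but gene by gene it did. Replicate 1 of Ad-atrogin-1 was above Ad-GFP replicates 1 and 2 in 34 and 36 of the 49 genes, and replicate 2 in 39 and 41. Against Ad-GFP replicates 1 and 2, the median difference over the 49 genes was 0.11 and 0.13 for Ad-atrogin-1 replicate 2, and 0.05 and 0.04 for Ad-atrogin-1 replicate 1. The 2 Ad-atrogin-1 arrays differed from each other by 0.06 (replicate 2 minus replicate 1) and the 2 Ad-GFP arrays by -0.01. Without Ad-atrogin-1 replicate 2 the median log2 fold change over the family was 0.05, with 36 of 49 genes above 0.

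The ribosomal protein probe sets lie near the upper end of the arrays. In mean signal, 37 of the 49 genes were above the 99th percentile of all probe sets, which lay between 11.19 and 11.22 on the 4 arrays. Of the 311 probe sets above it on each array, 67 and 68 on the Ad-atrogin-1 arrays were ribosomal protein probe sets, shared ones included, against 67 and 66 on the Ad-GFP arrays. The brightest probe set reached 13.99 and 13.90 on the Ad-atrogin-1 arrays, against 13.99 and 13.99 on the Ad-GFP arrays, and the brightest member gene 13.05 and 13.16 with Ad-atrogin-1, against 12.98 and 13.04 with Ad-GFP. No array thus had a ribosomal protein gene at its maximum, although 10 of the 33 probe sets within 1 log2 unit of the maximum on Ad-atrogin-1 replicate 2 were ribosomal, against 2 of 20 on replicate 1, 0 of 18 on Ad-GFP replicate 1 and 2 of 19 on Ad-GFP replicate 2. These counts share no common cut-off, because each array's own maximum was used. That maximum was lowest on Ad-atrogin-1 replicate 2, at 13.90, against 13.99 on the other arrays. Compression of differences at high signal would make a fold change smaller than the change in mRNA, and its part in these values was not tested.

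Members were therefore set beside other genes of like signal. The 27 members with a mean log2 signal of 12 or more had a median log2 fold change of 0.10, with 26 above 0 and 18 without overlap on the higher side. The 50 other genes of that brightness had a median of -0.02, with 23 above 0 and 10 without overlap on the higher side. Without Ad-atrogin-1 replicate 2 these medians were 0.04 and 0.01, and without Ad-atrogin-1 replicate 1 they were 0.15 and -0.04. The median of the bright members exceeded that of the other bright genes in each case, by 0.03 to 0.19, so the size of the gap rested on the 2 Ad-atrogin-1 arrays unequally. Between those arrays (replicate 2 minus replicate 1) the bright members differed by 0.09 in the median, with 25 of 27 higher, while the other bright genes differed by -0.07. The 11 members of signal 9 to 12 had a median of 0.13, and the 11 below 9 a median of -0.02. Counted by probe sets of signal 12 or more, the 52 ribosomal ones, shared ones included, had a median of 0.12, with 49 above 0. The 85 others had a median of 0.03, with 48 above 0. Without overlap on the higher side were 73.1% of the ribosomal and 25.9% of the other bright probe sets.

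**Figure D2:**
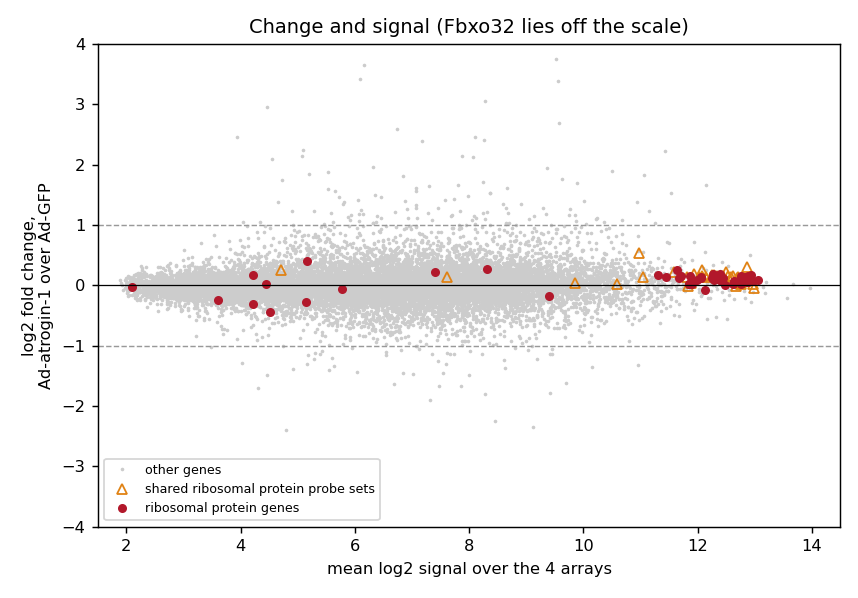
Log2 fold change (vertical axis, Ad-atrogin-1 over Ad-GFP) against the mean log2 signal of the 4 arrays on the horizontal axis, for the ribosomal protein genes (red), the shared ribosomal protein probe sets (orange triangles) and all other genes (grey), with Fbxo32, at 8.37, off the scale. Ribosomal protein genes gather at the bright end in a narrow band about 0.09 above 0, well inside the dashed 2-fold lines.

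**Figure D3:**
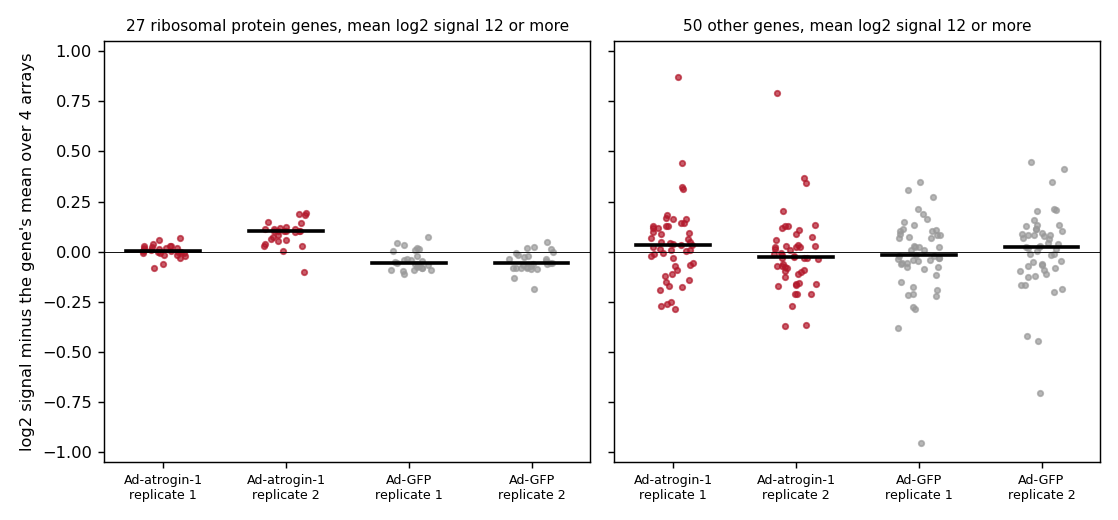
Log2 signal on each array minus the gene's own mean over the 4 arrays (vertical axis), for the 27 ribosomal protein genes with a mean signal of 12 or more (left panel) and the 50 other genes of that brightness (right panel), Ad-atrogin-1 arrays in red and Ad-GFP arrays in grey. Black lines are medians; in the left panel the points of Ad-atrogin-1 replicate 2 stand highest, and the other genes scatter more widely around 0 on every array.

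The 3 members with a limma p under 0.05 before adjustment were all dim, and 1 lay above 0 and 2 below. Rpl26l1, a close relative of Rpl26, had log2 signals of 5.27 and 5.45 with Ad-atrogin-1, against 5.08 and 4.83 with Ad-GFP (log2 fold change 0.41, SE 0.14, adjusted p = 0.316). Rpl28, a large subunit protein, had 4.37 and 4.23 with Ad-atrogin-1, against 4.67 and 4.82 with Ad-GFP (log2 fold change -0.44, SE 0.13, adjusted p = 0.240). Rpl37-ps2, annotated as a pseudogene, had 4.05 and 4.07 with Ad-atrogin-1, against 4.30 and 4.43 with Ad-GFP (log2 fold change -0.31, SE 0.12, adjusted p = 0.359). Groups did not overlap in any of them, against 43% of all genes without overlap in either direction. This adds little, since the 3 were picked by their p.

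For Rpl28 a brighter probe set disagreed with its own. Probe set 1398830_at, which lists Rpl28 with 2 other symbols, had a mean log2 signal of 12.07 and a log2 fold change of 0.15, opposite in sign to the -0.44 of the probe set that lists Rpl28 alone. Rpl30 and Rps13 likewise had dim probe sets of their own and bright shared ones. Rpl30 had 4.42 and 4.48 with Ad-atrogin-1, against 4.46 and 4.40 with Ad-GFP (log2 fold change 0.02). The shared probe sets that list it had log2 fold changes of 0.22 and 0.17 at mean signals of 11.58 and 12.28. The first of them also lists Rps10, a different ribosomal protein gene, so its value may not be that of Rpl30. Rps13 had 4.20 and 4.41 with Ad-atrogin-1, against 4.06 and 4.20 with Ad-GFP (log2 fold change 0.17), and its shared probe set 0.13 at a mean signal of 12.38. Dim single-symbol probe sets of such genes are thus uncertain measures of the gene.

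Paralogs of core ribosomal proteins, several of which are restricted to certain tissues, showed no common direction. Over the 6 measured, the median log2 fold change was 0.02, with 3 above 0 and 3 below. Rpl3l, the striated muscle form of Rpl3, had log2 signals of 3.62 and 3.33 with Ad-atrogin-1, against 3.73 and 3.72 with Ad-GFP (log2 fold change -0.25, SE 0.14, adjusted p = 0.526). Both Ad-atrogin-1 arrays were lower, at signals in the dim part of the arrays, while Rpl3 had a log2 fold change of 0.04. Rps27l, a p53 target in human cells, had 8.75 and 8.14 with Ad-atrogin-1, against 8.39 and 7.98 with Ad-GFP (log2 fold change 0.26, SE 0.25), with overlapping groups and a wide gap between the replicates of each. The shared probe set 1367717_at, whose list holds Rps27, had a log2 fold change of 0.12.

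Rpl7l1, a relative of Rpl7, had 9.38 and 9.22 with Ad-atrogin-1, against 9.57 and 9.38 with Ad-GFP (log2 fold change -0.18, SE 0.13), whereas Rpl7 had 12.31 and 12.42 with Ad-atrogin-1, against 12.26 and 12.27 with Ad-GFP (log2 fold change 0.10, SE 0.12). Each of the pair missed the test, and Rpl7l1's groups touched at 9.38. Rpl39l1 had 5.40 and 4.61 with Ad-atrogin-1, against 5.44 and 5.12 with Ad-GFP (log2 fold change -0.28, SE 0.28), the widest error of all members, and Rpl39 had 5.78 and 5.72 with Ad-atrogin-1, against 5.83 and 5.79 with Ad-GFP (log2 fold change -0.06). Rps4y2 had 7.74 and 7.28 with Ad-atrogin-1, against 7.49 and 7.09 with Ad-GFP (log2 fold change 0.22, SE 0.21), with overlap. Rps4x-ps1, annotated as a pseudogene and the dimmest member, had 1.95 and 2.22 with Ad-atrogin-1, against 2.14 and 2.07 with Ad-GFP, close to the floor of the arrays. Rpl41, the smallest ribosomal protein, was the only member with a mean signal of 12 or more whose log2 fold change was below 0, at -0.08, with 12.15 and 12.03 with Ad-atrogin-1, against 12.16 and 12.18 with Ad-GFP. The probe set 1388989_at, which lists only relatives of Rpl22, had a log2 fold change of 0.19, against 0.25 for Rpl22.

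In the 5 genes with several probe sets of their own, no pair of probe sets differed by more than 0.5 in log2 fold change. For Rpl3 the second probe set had a mean signal of 6.32 and a log2 fold change of -0.04, for Rpl7 a mean of 6.13 and -0.01, and for Rpl7l1 a mean of 9.02 and -0.08. The remaining 2 second probe sets had log2 fold changes of 0.00 and -0.21 at signals of 3.73 and 6.51.

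The 36 shared probe sets were described apart from the 49 genes, on the same arrays. Their median log2 fold change was 0.14, with 33 of 36 above 0, against 47.1% of all probe sets. Both Ad-atrogin-1 arrays lay above both Ad-GFP arrays in 28 (77.8%), against 18.3% of all probe sets, and below them in 0, against 22.1%. For the 25 shared ones of signal 12 or more the higher share was 80%, against 25.9% of the 85 other probe sets of that brightness. None was called, against 0.274% of all probe sets, and the smallest p adjusted over all probe sets was 0.184.

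That p belonged to 1398770_at, which lists both Rpl36a and Rpl36al1. It had log2 signals of 11.20 and 11.29 with Ad-atrogin-1, against 10.71 and 10.70 with Ad-GFP (log2 fold change 0.54, SE 0.12, limma adjusted p = 0.184). The gap between the groups was several times the gap between replicates. A second probe set with the same symbols, 1371573_at, had 11.07 and 11.13 with Ad-atrogin-1, against 11.01 and 10.93 with Ad-GFP (log2 fold change 0.14), so the 2 probe sets gave different sizes for the same annotation. Probe set 1367625_at, which lists Rpl10 with 2 copies, had 13.01 and 13.05 with Ad-atrogin-1, against 12.65 and 12.78 with Ad-GFP (log2 fold change 0.31, adjusted p = 0.423), again without overlap. Shared stalk protein probe set 1371307_at, with Rplp1 in its list, had 12.65 and 12.68 with Ad-atrogin-1, against 12.66 and 12.69 with Ad-GFP, a log2 fold change of -0.01.

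Ribosomal proteins whose symbols fall outside the rule had similar values. Rpsa, the laminin receptor and small subunit protein, had log2 signals of 12.21 and 12.34 with Ad-atrogin-1, against 12.15 and 12.21 with Ad-GFP (log2 fold change 0.09, adjusted p = 0.794). Rack1, a scaffold on the head of the small subunit, had 11.94 and 12.12 with Ad-atrogin-1, against 11.86 and 11.98 with Ad-GFP (log2 fold change 0.11, adjusted p = 0.774). Their groups lay close together or overlapped, and neither gene passed the test.

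Genes that work with the ribosome were taken as lists. All 11 measured subunits of eIF3, the scaffold that brings the small subunit to the mRNA, had a log2 fold change above 0 (0.10 to 0.29, median 0.16), 8 of 11 without overlap on the higher side and 0 called, where 49.2% of all genes lay above 0 and 20.7% had no overlap on the higher side. Eif3m, the brightest, had log2 signals of 11.44 and 11.58 with Ad-atrogin-1, against 11.42 and 11.19 with Ad-GFP (log2 fold change 0.20, adjusted p = 0.597). The other 21 initiation factors and regulators had a median of 0.17, with 14 above 0, and their brightest, Eif4g2, had 12.03 and 12.03 with Ad-atrogin-1, against 11.81 and 11.96 with Ad-GFP (log2 fold change 0.14). With any 1 array left out the median stayed between 0.14 and 0.25 for eIF3 and between 0.12 and 0.21 for the other initiation factors, and no gene of either list was called.

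Elongation factors had a median log2 fold change of 0.04 over 10 genes, which was -0.0051 without Ad-atrogin-1 replicate 2 and 0.14 without Ad-GFP replicate 1. Eef1a1, which brings aminoacyl-tRNA to the ribosome, had 13.14 and 13.33 with Ad-atrogin-1, against 13.13 and 13.22 with Ad-GFP (log2 fold change 0.06). The 6 measured genes of the list of other mRNAs with a 5′ terminal oligopyrimidine tract had a median of -0.11, with 3 above 0. That median was -0.034 without Ad-atrogin-1 replicate 1, and it was 0.013 without Ad-GFP replicate 1. Vim, an intermediate filament gene and the brightest of them, had 11.80 and 11.79 with Ad-atrogin-1, against 12.14 and 11.94 with Ad-GFP (log2 fold change -0.24, adjusted p = 0.488). Among the members, the 12 genes scored with a tract had a median log2 fold change of 0.14 (10 above 0) and the 30 scored without it 0.09 (26 above 0). Scoring needed a C exactly at the annotated start. Genes such as Rps23 and Rpl27a, whose annotated start is a T followed by a pyrimidine run, thus counted among the 30. The split therefore follows the start-site annotation and need not separate mRNAs with and without a tract.

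Ribosome biogenesis factors had a median of 0.12 over 55 genes, with 43 above 0, 13 without overlap on the higher side, close to the 20.7% of all genes, and 0 called. Their median was 0.049 without Ad-atrogin-1 replicate 2, 0.25 without Ad-GFP replicate 1 and, with 26 of 55 above 0, -0.0062 when Ad-GFP replicate 2 was left out. Ncl, nucleolin, had 11.41 and 11.69 with Ad-atrogin-1, against 11.42 and 11.35 with Ad-GFP (log2 fold change 0.16, adjusted p = 0.690), with overlap. RNA polymerase I and its factors, which make the ribosomal RNA, had a median of 0.08 over 19 genes, which was 0.14 without Ad-atrogin-1 replicate 1, -0.015 without Ad-GFP replicate 2 and 0.19 without Ad-GFP replicate 1. Polr1f had 9.38 and 9.47 with Ad-atrogin-1, against 9.44 and 9.13 with Ad-GFP (log2 fold change 0.14). In both lists Ad-GFP replicate 1 overlapped the Ad-atrogin-1 arrays for the brightest gene.

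Of 13 measured regulators of ribosome supply, 1 was called, against 0.513% of all genes. Mycn, a Myc-family transcription factor that drives ribosome biogenesis and is active in the immature heart, had log2 signals of 8.74 and 8.69 with Ad-atrogin-1, against 7.41 and 7.05 with Ad-GFP (log2 fold change 1.48, SE 0.16, limma adjusted p = 0.0341). Mycn rose on both Ad-atrogin-1 arrays, with a gap between the groups wider than that between replicates. With any 1 array left out its log2 fold change was 1.30 to 1.66 and the call was lost (adjusted p = 0.360 to 0.446). In the list 3 genes lay without overlap on the higher side (20.7% of all genes) and 3 on the lower side (22.3%). The lower ones were Myc, at -0.30, Mtor, at -0.33, and Tsc1, at -0.41. None of these was called, and they are named after their values were seen. Myc thus lay in the direction opposite to Mycn. The median of the list was 0.05, with 7 of 13 above 0. It was -0.017 without Ad-atrogin-1 replicate 2 and -0.0027 without Ad-GFP replicate 1, and 0.14 and 0.10 without replicate 1 of Ad-atrogin-1 and replicate 2 of Ad-GFP.

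**Figure D4:**
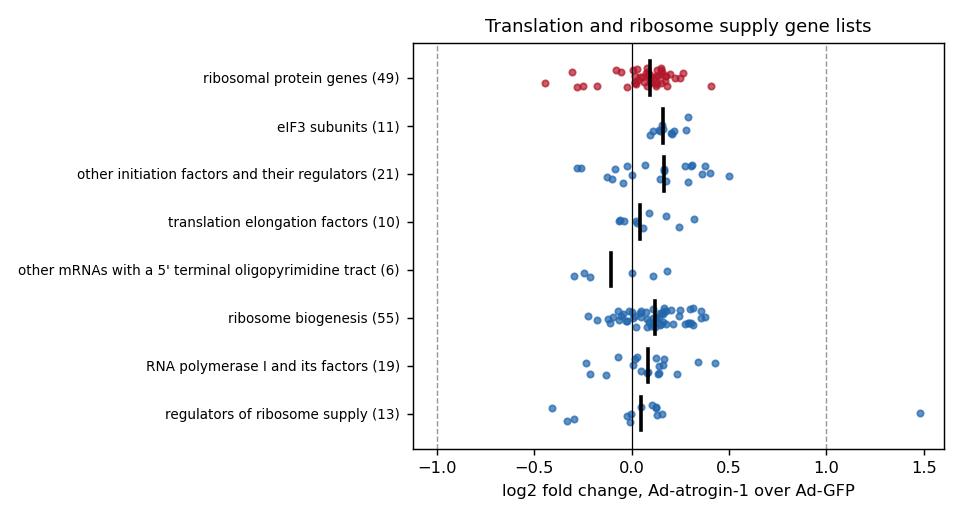
Log2 fold change (horizontal axis, Ad-atrogin-1 over Ad-GFP) of each gene in the ribosomal protein family (red) and in 7 lists of genes that work with the ribosome (blue), with the number of genes in parentheses. Black bars are list medians, from -0.11 to 0.17, dashed lines mark a 2-fold difference, and Mycn, at 1.48, is the only point beyond one.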

How the data were processed

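RNA of the 4 cultures had been hybridised to single-colour Affymetrix arrays, and the authors deposited log2 signals made with RMA (background correction, quantile normalisation and probe summary) in GeneSpring GX. Because RMA gives the arrays nearly the same distribution, a change of all mRNAs together is not measured. Depth does not apply to arrays. From the deposited log2 values, 57 array controls were dropped, and the remaining 31042 probe sets were fitted in limma 3.58.1 (R 4.3.3) with group as the only term and a two-sided moderated test from eBayes. Of these, 20826 list 1 gene symbol, 436 several and 9780 none in the platform annotation. Each gene was represented by its brightest probe set over the 4 arrays, and p-values were adjusted by Benjamini-Hochberg over 14217 genes. Calls needed an adjusted p under 0.05 and a 2-fold difference, the thresholds of the methods. The fit was tested on simulated data.

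Named members were those called, the 6 highest and 6 lowest by fold change and by signal, measured paralogs and stalk proteins, Rps6, Rpl5 and Rpl11, and those with an unadjusted p under 0.05. Outside the family they were Fbxo32, ribosomal proteins missed by the symbol rule, and the called or brightest gene of each list. Shared probe sets that are singled out, and probe sets of genes with several, were chosen after their values were seen. Members and lists were chosen with earlier results of these data known. Alternatives changed the centring, normalisation, filters, prior, gene summary, test, thresholds and arrays used. Figures were drawn with matplotlib 3.10.9.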

Additional observations from a re-analysis of the deposited data

How the results depend on the processing

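No ribosomal protein gene was called under any of 18 alternatives but 1: with an unadjusted p and no fold threshold there were 3. Leaving out an array, the replicate block and the adjusted t-test called almost no gene of the whole array. That no member was called in those settings therefore says little about the family. The median log2 fold change of the family, 0.09 as reported, was 0.013 after further quantile normalization. It was -0.032 when probe sets above the 99th percentile were left out, which left 16 members, some of them by a second, dimmer probe set. With 1 array left out it was 0.048 to 0.11, the lowest without Ad-atrogin-1 replicate 2. The alternatives for the next 3 values were chosen after seeing the data. The number of members without overlap on the higher side, 27 as reported, was 11 after further quantile normalization (20.6% of all genes). It was 30 to 38 with 1 array left out, where the share of all genes was also higher, at 33.2% to 35.7%, since fewer arrays separate more easily. The number above 0, 41 as reported, was 29 after quantile normalization and 36 to 40 with 1 array left out. For the shared probe sets, the median was 0.049 after quantile normalization and 0.08 to 0.18 with 1 array left out. The gap between the medians of the 27 bright members and the 50 other bright genes was 0.12 as reported and 0.090 after quantile normalization. The cause of these shifts was not tested.

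Of 420 values for 37 named genes under alternatives, 399 had the direction and side of the threshold reported, 14 another direction and 7 lost the call. Quantile normalization gave -0.030 for Rpl19, -0.018 for Rpl3 and -0.013 for Rpsa, and leaving out bright probe sets gave -0.043 for Rpl3 and -0.011 for Rpl7, each from a second, dimmer probe set. With 1 array left out, the log2 fold change ran from -0.041 to 0.15 for Eef1a1, -0.015 to 0.29 for Polr1f, -0.011 to 0.051 for Rpl30, -0.67 to 0.12 for Rpl39l1, -0.044 to 0.57 for Rps27l, -0.15 to 0.11 for Rps4x-ps1 and -0.0062 to 0.45 for Rps4y2. Fbxo32 stayed at 8.27 to 8.47 and lost its call without either Ad-atrogin-1 array (adjusted p = 0.103 and 0.0994 by limma). Over all genes, 73 calls became 0 to 1 with 1 array left out, 98 with centred arrays and 94 after quantile normalization, and the cause was not tested.

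Neither the labels nor the 2 pairs settle whether same-numbered arrays belong together: the correlation of their deviations from the group means was 0.04 over all probe sets and 0.53 over the 49 members. In Rps27l and Rps4y2, whose groups overlap, the Ad-atrogin-1 array was above the Ad-GFP array of the same number in both pairs, and in Rpl7l1 below it. With the replicate block the family's median was 0.09, 0 members and 1 gene in all were called, and Mycn lost its call (log2 fold change 1.48, adjusted p = 0.144 by limma). The 7 members whose 95% interval reached a 1.5-fold difference all had a mean signal under 9.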
